A study of Mus musculus with 4 samples.

Results

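The 10 genes described here, Pou5f1, Nanog, Klf2, Klf4, Esrrb, Zfp42, Tdgf1, Sall4, Lin28a and Lin28b, were chosen because they are active in mouse embryonic stem (ES) cells and are known to be switched down when these cells are moved to neural medium. They are 10 of 22367 protein-coding genes in the annotation used. The locus of a gene was its body plus 50 kb on each side, and every SOX3 peak that overlapped a locus was taken. The question was which of these genes, and which of their known SOX2-OCT4 enhancers, carried SOX3 peaks in cells on the way to the neural fate.

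SOX3 was immunoprecipitated with the antibody R&D hSOX3 (AF2569) from neural progenitor (NP) cells in 3 samples labelled biological replicates. The cells came from R1 ES cells, a mouse line, grown as a monolayer in N2B27 medium for 4 days. The labels name no deletion and no agent beyond this medium, so all samples belong to 1 group and no condition was compared with another. The input DNA of the same cells, without antibody, was not analysed here. The 3 lists held 18816, 8096 and 40543 peaks, and no read totals, so the depth of each library is unknown. No gene expression was measured, so whether any of the 10 genes was still transcribed, or how many cells still expressed it, cannot be read from these lists.

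In ES cells, SOX2 and OCT4 (the product of Pou5f1) bind side by side at many enhancers, the SOX protein on a short word related to ACAAAG and the POU protein on part of an octamer related to ATGCAAAT. SOX2 and OCT4 bind enhancers of their own genes and of Nanog in this way, and the KLF proteins and ESRRB belong to the same self-sustaining circuit. SOX3 is a close relative of SOX2 and recognises the same words, and in neural progenitors SOXB1 proteins pair with POU proteins of another class.

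SOX3 peaks of all 3 replicates lay at 6 of the 10 genes, Pou5f1, Nanog, Klf2, Esrrb, Sall4 and Lin28a, beside 28.8% of all protein-coding genes, and at 5 of the 10 within 2 kb of a start, beside 4.66%. At Klf4, Zfp42, Tdgf1 and Lin28b no stretch was shared even by a pair of replicates within the locus. The windows of the 2 known Pou5f1 enhancers and of the SOX-OCT element of the Nanog promoter each carried a peak in every replicate. Over all genes the same windows did so at 0.434%, 0.474% and 2.05%. The windows of the 2 upstream Nanog enhancers and of the Zfp42 promoter element carried none. That is the usual outcome, since they held a peak of some replicate at only 4.79%, 5.69% and 12.5% of all genes.

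The sequences below are the parts of 8 regions on which the results turn, read from the mm9 (NCBIM37) genome on the strand of the gene. Each is up to 300 bases of the stretch covered by peaks of all 3 replicates, with annotated untranslated bases left out. Capitals mark 4 spellings of the SOX word (ACAAAG, the form ACAATG, the form ACAAAA or the form ACAATA), the POU octamers ATGCAAAT or, with 1 base changed, ATGCTAAT, and joined SOX and POU words. Words were marked on either strand, so that CTTTGT in capitals, for example, is ACAAAG read from the opposite strand. The first pair is shown because it lies at the distal and proximal enhancers of Pou5f1, 5′ of the gene.

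Pou5f1 distal enhancer, chr17:35640854-35641153, plus strand: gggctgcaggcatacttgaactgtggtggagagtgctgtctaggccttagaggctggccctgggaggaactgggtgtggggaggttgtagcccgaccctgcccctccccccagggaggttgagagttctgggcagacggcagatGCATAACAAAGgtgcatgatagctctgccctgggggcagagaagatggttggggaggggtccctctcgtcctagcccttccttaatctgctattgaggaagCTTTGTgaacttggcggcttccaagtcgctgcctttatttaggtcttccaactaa
Pou5f1 region at the proximal enhancer, chr17:35641893-35642192, plus strand: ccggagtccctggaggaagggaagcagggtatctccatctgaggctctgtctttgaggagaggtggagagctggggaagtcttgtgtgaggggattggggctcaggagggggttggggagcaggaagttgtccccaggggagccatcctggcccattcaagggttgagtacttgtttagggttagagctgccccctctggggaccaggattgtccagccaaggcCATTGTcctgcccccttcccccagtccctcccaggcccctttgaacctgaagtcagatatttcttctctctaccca

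The Nanog sequence ends at the gene start and holds the joined SOX and POU words of the promoter. The Klf2 sequence lies upstream of the gene and had the best rank of any region of the 10 loci in replicate 3.

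Nanog promoter, chr6:122657314-122657506, plus strand: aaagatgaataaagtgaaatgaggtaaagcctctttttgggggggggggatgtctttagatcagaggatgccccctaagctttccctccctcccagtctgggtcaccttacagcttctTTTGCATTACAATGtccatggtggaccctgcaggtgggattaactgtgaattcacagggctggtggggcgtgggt
Klf2 upstream region, chr8:74839986-74840285, plus strand: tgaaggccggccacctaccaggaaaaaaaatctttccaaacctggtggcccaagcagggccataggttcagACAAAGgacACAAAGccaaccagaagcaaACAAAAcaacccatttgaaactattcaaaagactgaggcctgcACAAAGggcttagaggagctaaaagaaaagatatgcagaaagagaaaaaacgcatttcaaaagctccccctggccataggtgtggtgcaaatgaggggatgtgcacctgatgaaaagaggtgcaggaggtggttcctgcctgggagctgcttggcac

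The Sall4 sequence is the highest-scoring region of that gene, upstream of it.

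Sall4 upstream region, chr2:168602588-168602887, minus strand: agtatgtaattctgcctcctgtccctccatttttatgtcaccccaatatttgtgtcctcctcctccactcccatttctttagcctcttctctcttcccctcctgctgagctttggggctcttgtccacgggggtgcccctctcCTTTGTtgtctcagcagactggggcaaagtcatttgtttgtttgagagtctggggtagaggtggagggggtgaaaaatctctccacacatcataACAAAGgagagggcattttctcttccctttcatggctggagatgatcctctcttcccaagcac

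The last sequences are the region upstream of Lin28a and the intronic region of Esrrb, which held no SOX word. With them is a region in the wide window searched for enhancers downstream of Klf4, outside the 50 kb limit.

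Lin28a upstream region, chr4:133575946-133576200, minus strand: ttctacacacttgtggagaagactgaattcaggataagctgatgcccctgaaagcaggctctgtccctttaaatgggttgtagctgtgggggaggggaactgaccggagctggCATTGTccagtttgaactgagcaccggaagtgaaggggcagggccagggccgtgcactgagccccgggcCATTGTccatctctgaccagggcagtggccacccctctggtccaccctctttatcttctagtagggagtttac
Esrrb intron, chr12:87839867-87840103, plus strand: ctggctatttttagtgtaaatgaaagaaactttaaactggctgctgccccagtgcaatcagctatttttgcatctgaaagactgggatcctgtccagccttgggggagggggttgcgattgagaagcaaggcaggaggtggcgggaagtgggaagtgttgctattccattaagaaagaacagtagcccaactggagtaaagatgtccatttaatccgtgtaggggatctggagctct
Klf4 downstream region, chr4:55477173-55477472, minus strand: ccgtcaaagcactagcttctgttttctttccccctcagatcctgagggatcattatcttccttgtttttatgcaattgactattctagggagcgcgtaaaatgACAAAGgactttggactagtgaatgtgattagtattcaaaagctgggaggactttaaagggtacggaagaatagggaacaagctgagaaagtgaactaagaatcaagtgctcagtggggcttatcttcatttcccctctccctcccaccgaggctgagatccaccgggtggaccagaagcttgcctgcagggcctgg

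In replicates 1, 2 and 3 the 10 loci together held 34, 17 and 45 peaks. At least 1 peak of some replicate overlapped every locus, but so it did for 90.6% of all protein-coding genes. In replicate 1 a peak was found at 8 of the 10 genes, beside 67.7% of all genes. The shorter list of replicate 2 had one at 6 of the 10, beside 38.3%, and the list of replicate 3 at 10 of the 10, beside 84.6%. In the 1343747 bp of these loci the density was 25.3, 12.7 and 33.5 peaks per Mb in replicates 1, 2 and 3, beside 7.09, 3.05 and 15.3 peaks per Mb over the genome. The genome length included unsequenced gaps and stretches far from genes, whereas the loci were centred on genes. The 2 densities are therefore not like for like, and the density around all genes was not taken. Because most genes of the genome had a peak in at least 1 list, the text below rests on what the replicates shared.

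Peaks that overlapped by at least 1 bp were joined into regions, and the 96 peaks gave 64 regions. Of these, 13 held peaks of all 3 replicates, 5 held peaks of 2 replicates and 46 held peaks of 1 replicate. Replicate 1 alone gave 19 of the single regions, replicate 3 alone gave 27 and replicate 2 alone gave 0. Every peak of replicate 2, the shortest list, was thus shared with another replicate. Over the genome, 5358 of 51271 regions held peaks of all 3 replicates.

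A region of 3 replicates lay in the locus of 6 of the 10 genes, beside 28.8% of all protein-coding genes. The median gene of the 10 had 1.5 such regions, and the median of all genes was 0. Since long genes have long loci, the count was repeated for genes with a body under 20 kb, and 5 of the 8 such genes had a region of 3 replicates, beside 25.5% of all genes of that size. Within 2 kb of an annotated start a region of 3 replicates was found for 5 genes, Pou5f1, Nanog, Klf2, Sall4 and Lin28a, beside 4.66% of all genes. At a p-value of 1e-10 or less this count fell to 2 genes, Pou5f1 and Lin28a, beside 1.93% of all genes. Sall4 and Lin28a each had 3 such regions in the locus, and 3.20% of all genes had 3 or more. These counts are descriptions, and no test was run on them, because the genes were chosen with earlier results of these data known.

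**Figure D1:**
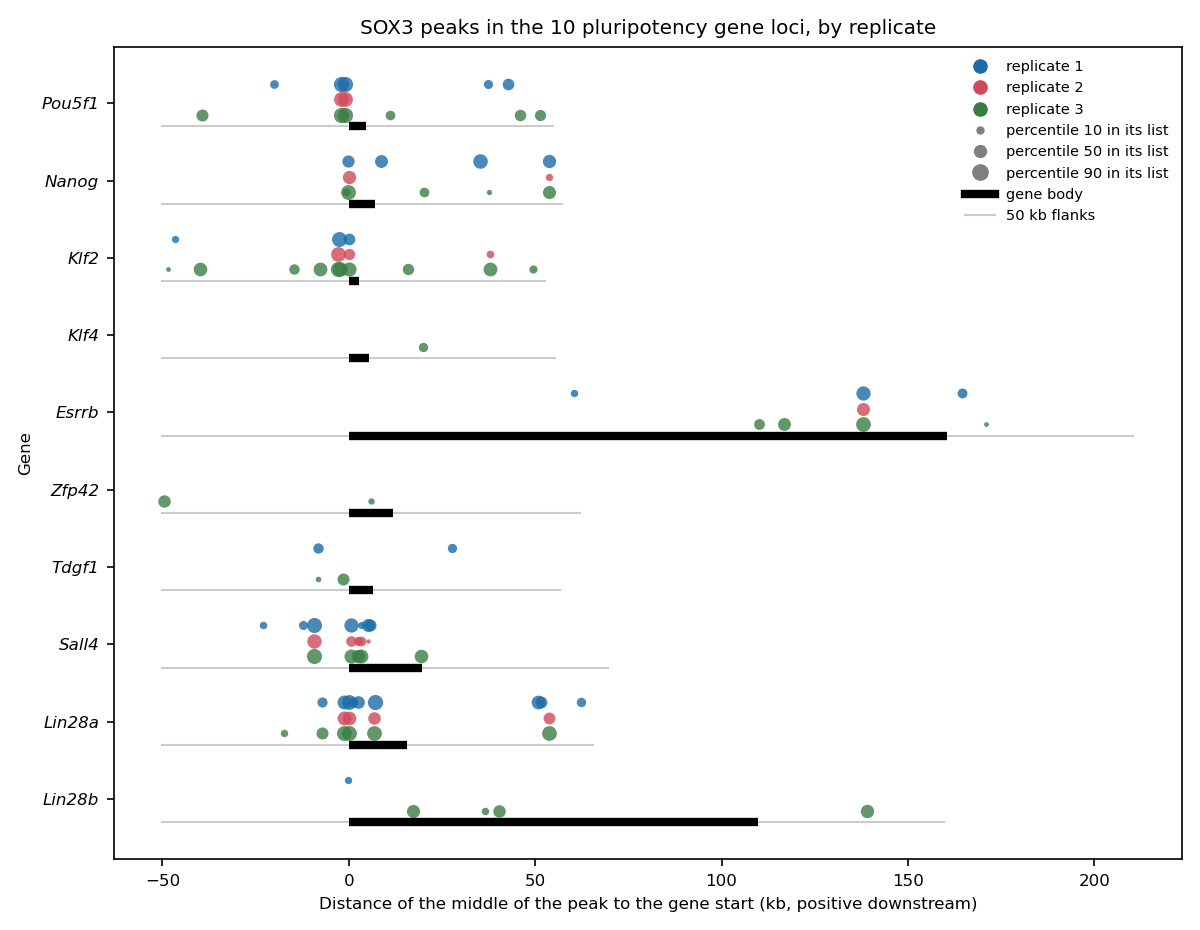
SOX3 peaks in the 10 loci, by the distance of the middle of each peak to the gene start in kb (x axis) and by gene (y axis), with 1 row of points per replicate and the point area growing with the percentile of the score in its list. Points of all 3 colours stack near the start at Pou5f1, Nanog, Klf2, Sall4 and Lin28a and inside Esrrb, while Klf4, Zfp42, Tdgf1 and Lin28b have 1 to 5 scattered peaks and none of replicate 2.

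Distances below are to the gene start, the most upstream annotated start, and are negative upstream and positive downstream. The score of a peak restates the p-value that the peak caller MACS gave it, as 10 times its negative log10. Deeper libraries give higher scores for the same enrichment, so each score is given with its rank in its own list, where rank 1 is the highest, and with its percentile, where 50 is the median of the list and 100 the top.

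Pou5f1 encodes OCT4, the POU protein without which the pluripotent state cannot be kept. The gene (ENSMUSG00000024406) lies on the plus strand of chromosome 17 from 35642982 to 35647721. Its distal enhancer, the element used in naive ES cells, was covered by a region of 491 bp from 35640744 to 35641234, with its middle 1993 bp upstream of the start. Here the scores were 609, 331 and 528 in replicates 1, 2 and 3, and the ranks were 451, 527 and 666. These peaks stood at percentiles 97.6, 93.5 and 98.4, so the element was near the top of each list.

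The proximal enhancer, the element used in the primed state of the epiblast, was partly covered by a separate region of 646 bp from 35641690 to 35642335, centred 969.5 bp upstream. The scores there were 717, 335 and 552, which ranked 333, 514 and 621. In each replicate this region scored a little above the distal one, with percentiles 98.2, 93.7 and 98.5. It was the best-ranked region of all 10 loci in replicates 1 and 2. The middles of its peaks lay 894.5, 942.5 and 1015 bp upstream in the 3 replicates, at the inner edge of the textbook enhancer window from 1400 to 900 bp upstream, and the region ran past that edge towards the gene.

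In the distal sequence the capitals GCATAACAAAG run a POU word and a SOX word together. On the minus strand this is TTGT, 1 base and ATGC, centred 1980 bp upstream of the start. The proximal sequence held a single SOX word, ACAATG on the minus strand, and no octamer. This word lay outside the textbook window, on its side towards the gene. The other 7 regions of the Pou5f1 locus each came from a single list, 3 from replicate 1 and 4 from replicate 3. All 7 of these lay nearer to the starts of neighbouring genes (H2-Q10, Cchcr1 and Cdsn) than to that of Pou5f1. The highest of them by percentile, in replicate 3, lay 39259.5 bp upstream at percentile 58.9, and 83.6% of its 50-base sequences occur in more than 1 place in the genome.

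Nanog encodes a homeodomain protein that holds ES cells in the naive state. The gene (ENSMUSG00000012396) lies on the plus strand of chromosome 6 from 122657507 to 122664651. A region of 347 bp from 122657246 to 122657592 spanned its start, centred 88 bp upstream. Scores of 95.7, 131 and 199 placed it at ranks 7366, 2145 and 2680. The replicates differed more here than at Pou5f1, with percentiles of 60.9, 73.5 and 93.4. The SOX-POU composite word of the promoter, TTGT, 1 base and ATGCAAA on the minus strand, lay under the peak of each replicate, 69.5 bp upstream of the most upstream start and 148.5 bp upstream of the start of transcript Nanog-001.

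Neither of the upstream Nanog enhancers, searched from 5500 to 4000 bp and from 46000 to 44000 bp upstream, held a peak of any replicate. The same windows held a peak of some replicate at only 4.79% and 5.69% of all genes. The nearest peak on the upstream side was 1 of replicate 3, 628.5 bp upstream, with score 53.3 at rank 32837. A second region of 3 replicates lay 53686 bp downstream, in an intron of the neighbouring glucose transporter gene Slc2a3, whose start was 18255 bp away. Its scores of 132, 55.5 and 80.7 ranked 4976, 6709 and 11792, and in replicate 2 its percentile was 17.1. Among the 5 single-replicate regions the highest was a peak of replicate 1 at the start of Slc2a3, with score 268 and percentile 90.2. These downstream peaks were therefore counted for Nanog by the 50 kb rule but lay in or at another gene.

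Klf2 encodes a Krüppel-like factor that sustains naive pluripotency together with Klf4. The gene (ENSMUSG00000055148) lies on the plus strand of chromosome 8 from 74842932 to 74845555. A region of 658 bp from 74839955 to 74840612 lay 2648.5 bp upstream, in intergenic sequence. It scored 440, 317 and 627, at ranks 821, 565 and 516. All 3 replicates placed it high, at percentiles 95.6, 93.0 and 98.7. Replicate 3 had a second, lower peak in it, centred 2455 bp upstream with score 143. The printed sequence holds 4 SOX words, 3 of them ACAAAG and 1 ACAAAA, all on the plus strand.

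A weaker region of 320 bp lay over the first exon of Klf2, centred 40.5 bp downstream of the start. It scored 84.5, 83.5 and 110, and stood at percentiles 54.8, 51.0 and 84.2. It held no SOX word, so this region and the upstream one differed both in rank and in sequence. A region of replicates 2 and 3 lay 37861.5 bp downstream in an intron of Eps15l1, at percentiles 19.5 and 79.7. The locus also held 7 regions of 1 replicate, of which the highest, in replicate 3, lay 7789 bp upstream at percentile 79.9 and held the octamer ATGCAAAT.

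Esrrb encodes an orphan nuclear receptor that can stand in for Nanog in ES cells. The gene (ENSMUSG00000021255) is the longest of the 10 and lies on the plus strand of chromosome 12 from 87702067 to 87862578. Its only region of 3 replicates, 390 bp from 87839755 to 87840144, lay in intron 3 of Esrrb-001, 137882.5 bp downstream of the most upstream start and 28882.5 bp from the closest annotated start. The scores of 206, 120 and 189 ranked 2729, 2431 and 2907. The ranks were alike in lists of very different length, so the percentiles were 85.5, 70.0 and 92.8. No SOX word was found in this region. None of the annotated starts of Esrrb carried a shared peak, and the 5 single-replicate regions included 1 of replicate 1, centred 213.5 bp upstream of an inner start, with score 55.1 at percentile 17.7. The highest of the 5 was a peak of replicate 3 in intron 2, 116854 bp downstream, at percentile 68.3.

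Sall4 encodes a zinc-finger protein that binds with OCT4 and NANOG. The gene (ENSMUSG00000027547) lies on the minus strand of chromosome 2 from 168573832 to 168593443. The highest of its 3 regions of 3 replicates was 485 bp long, from 168602472 to 168602956, and lay 9271 bp upstream. Scores of 473, 225 and 334 put it at ranks 739, 981 and 1300. It stood at percentiles 96.1, 87.9 and 96.8, above every other region of this gene in each replicate, and its sequence holds 2 ACAAAG words.

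The other 2 regions of 3 replicates lay close to starts of Sall4. One of them, of 309 bp from 168589995 to 168590303, lay in intron 1 of Sall4-001, 3294 bp downstream and 597 bp from the closest annotated start. With scores of 54.0, 67.2 and 98.2 and percentiles of 14.8, 36.2 and 80.4, it was the lowest of the 13 regions in replicate 1. It held the octamer ATGCTAAT and an ACAAAG word, whose centres lay 31 bp apart, so they were not the joined composite word. The other scored 205, 74.8 and 107 in the 3 replicates, higher than this one in each, at percentiles 85.5, 43.7 and 83.4.

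Intron 1 of Sall4-001 also held a pair of regions of 2 replicates. The peaks of replicates 1 and 2 at 5166.5 bp downstream stood at percentiles 71.4 and 0.735, and those of replicates 2 and 3 at 2517.5 bp downstream stood at percentiles 30.5 and 72.9. Within each pair the replicates thus placed the same region far apart in their lists. Of the 4 regions of 1 replicate the highest was a peak of replicate 3 in the last exon, 19490 bp downstream, at percentile 77.3.

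Lin28a encodes an RNA-binding protein that blocks the maturation of let-7 microRNAs in pluripotent and early progenitor cells. The gene (ENSMUSG00000050966) lies on the minus strand of chromosome 4 from 133559245 to 133574756. A region of 326 bp from 133575898 to 133576223 lay 1304.5 bp upstream. Its scores of 171, 161 and 240 ranked 3486, 1598 and 2040, and the percentiles of 81.5, 80.3 and 95.0 were the most even of the 3 Lin28a regions. Its sequence holds 2 ACAATG words.

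Over the start of Lin28a lay a region of 419 bp from 133574548 to 133574966, centred 1 bp upstream. It scored 349, 147 and 195, at percentiles 93.5, 77.6 and 93.2. The remaining region, of 670 bp from 133567519 to 133568188, lay in intron 2 of Lin28a-001, 6902.5 bp downstream. It scored 694, 108 and 179 and ranked 355, 2846 and 3126. Replicate 1 placed it highest of the 3 regions, at percentile 98.1, and replicates 2 and 3 placed it lowest, at 64.8 and 92.3. Replicates 2 and 3 thus shared the order upstream, start and intron, which replicate 1 reversed.

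A region of replicates 1 and 3 lay 7204 bp upstream of Lin28a, at percentiles 39.6 and 58.8. Another, of replicates 2 and 3, lay 53807 bp downstream in an exon of Hmgn2, at percentiles 57.1 and 92.0, where 100% of the 50-base sequences of the replicate 2 peak and 92.1% of those of the replicate 3 peak occur in more than 1 place, so its position is uncertain. The highest of the 6 regions of 1 replicate was a peak of replicate 1 at the start of Hmgn2, at percentile 79.5. None of the 13 regions of 3 replicates held any 50-base sequence that occurs in more than 1 place.

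**Figure D2:**
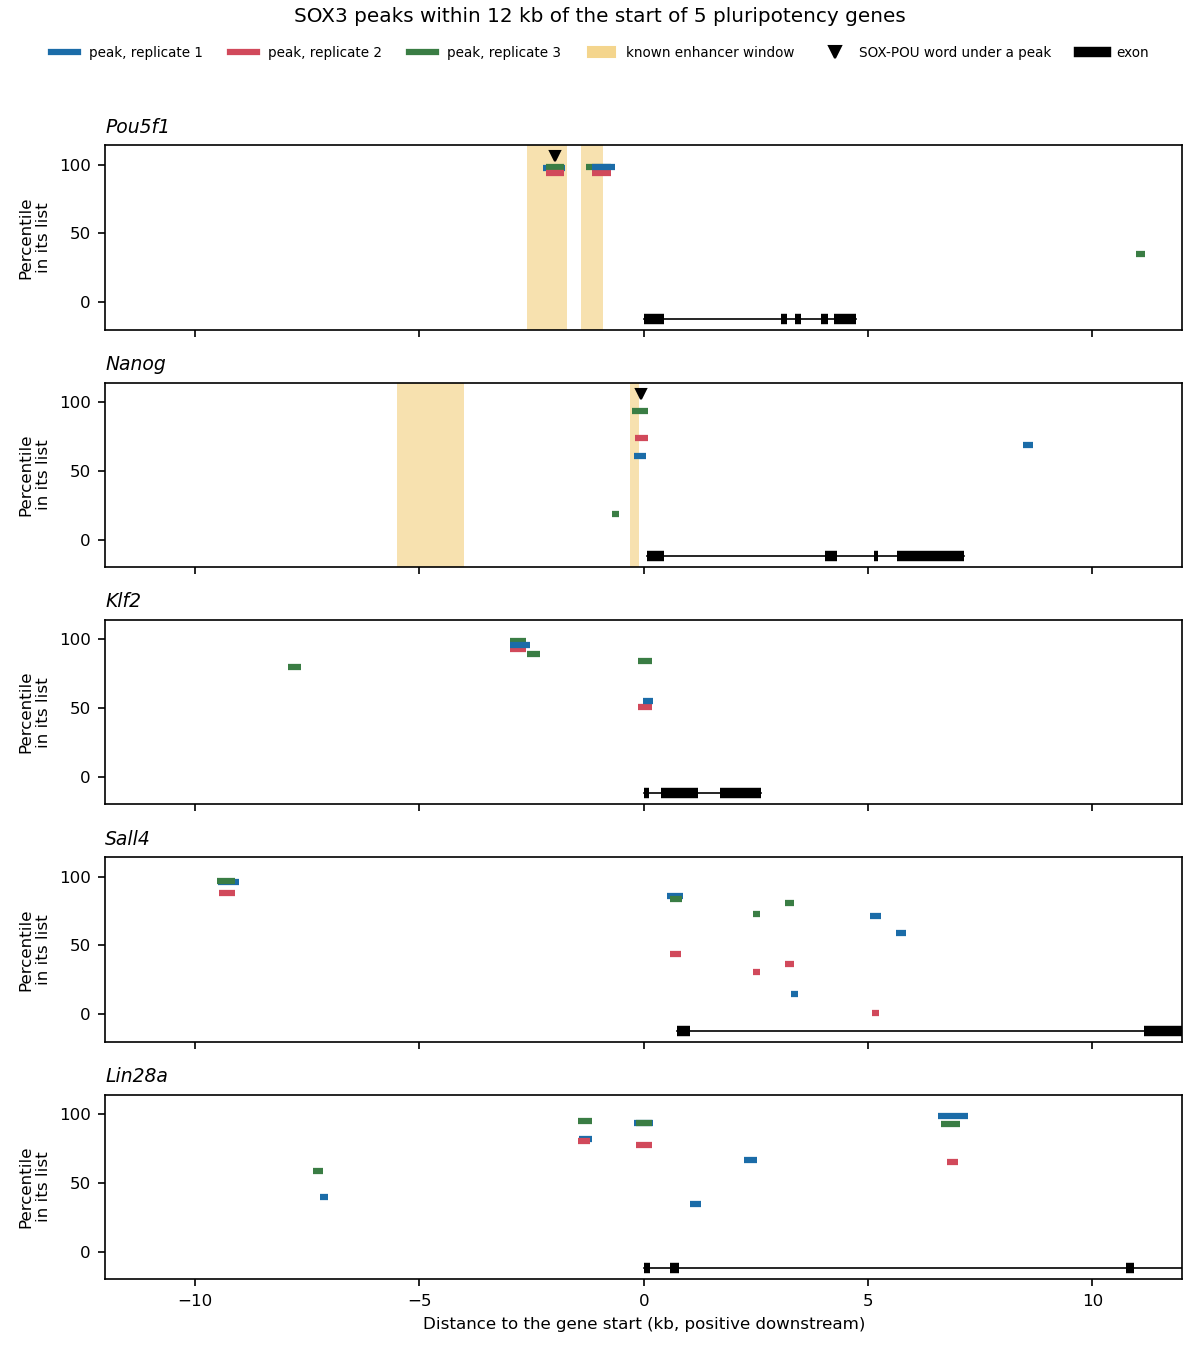
Peaks within 12 kb of the start of 5 genes, drawn as bars at their true width by distance to the gene start in kb (x axis) and by the percentile of the score in its own list (y axis), with the exons of transcript 001 in black and the known enhancer windows shaded yellow. The bars of the 3 replicates stand at percentiles 93.5 to 98.5 in both Pou5f1 enhancer windows, and the triangles, short SOX-POU words under a peak, mark the Pou5f1 distal enhancer and the Nanog promoter.

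Klf4 encodes the Krüppel-like factor of the reprogramming set. In the locus of the gene (ENSMUSG00000003032, minus strand of chromosome 4, 55540013 to 55545347) 1 peak was found, in replicate 3, 19938 bp downstream, with score 56.8 at percentile 32.3. Its known ES cell enhancers lie further downstream. In the window from 50000 to 70000 bp downstream, beyond the 50 kb limit, a region of 505 bp from 55477061 to 55477565 held a peak of each replicate, centred 68034 bp downstream. It scored 101, 108 and 172, with ranks of 6906, 2836 and 3303. Percentiles of 63.3, 65.0 and 91.9 lay below the medians of the 13 regions within the limit, and the nearest annotated start was that of Klf4. The printed part holds an ACAAAG word.

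Zfp42 encodes REX1, a zinc-finger protein long used as a marker of undifferentiated ES cells. The locus (ENSMUSG00000051176, minus strand of chromosome 8, 44380422 to 44392363) held 2 peaks, both of replicate 3. The one in intron 2, 5997 bp downstream, scored 51.7 at percentile 10.7, and the other, 49458.5 bp upstream, scored 72.8 at percentile 63.9. No peak overlapped the promoter window from 300 to 100 bp upstream, which holds 1 octamer. The same window held a peak of some replicate at 12.5% of all genes. The closest region of 3 replicates was 1664167 bp from the gene.

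Tdgf1 encodes Cripto, the co-receptor of the signalling protein Nodal. Its locus (ENSMUSG00000032494, minus strand of chromosome 9, 110842114 to 110848662) held 4 peaks, 2 in replicate 1 and 2 in replicate 3, none of which overlapped. The highest by percentile was a peak of replicate 3 1423.5 bp upstream of the start, with score 68.6 at percentile 58.5. A peak of replicate 1 at 8161 bp upstream and a peak of replicate 3 at 8346.5 bp upstream lay next to each other in an intron of Lrrc2 without touching, at percentiles 41.9 and 6.65. The closest region of 3 replicates was 102026 bp away.

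Lin28b encodes the second LIN28 protein, which also restrains let-7. The locus (ENSMUSG00000063804, minus strand of chromosome 10, 45096426 to 45206201) held 1 peak of replicate 1 and 4 of replicate 3, all apart. The peak of replicate 1 lay 191 bp upstream of the start and scored 54.7 at percentile 16.9. The highest, in replicate 3, lay 139061 bp downstream in an intron of Bves at percentile 74.9, and the next, 17275 bp downstream near an inner start of Lin28b, stood at percentile 71.9. The pair of LIN28 genes thus differed in these lists, with 3 regions of 3 replicates at Lin28a and none nearer than 378860 bp to Lin28b.

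The 50 kb limit decided a few regions. At Nanog, the region 53686 bp from the start lay 46379 bp from the gene and was inside, while the next one, with its edge 50385 bp from the gene and its middle 57766 bp from the start, was outside. The Klf4 region was 62448 bp from the gene. Other regions of 3 replicates up to 100 kb from a gene were 1 at Pou5f1 (66414 bp), 1 more at Nanog (82465 bp) and a pair at Sall4 (70744 and 71253 bp). With flanks of 100 kb, 7 of the 10 genes had a region of 3 replicates, beside 42.2% of all genes. At the other 5 genes with a region of 3 replicates the outermost region inside the limit was 9029 bp or less from the gene.

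The 13 regions of 3 replicates ranked higher than the regions of 1 replicate in the same loci. Their peaks had median percentiles of 85.5 in replicate 1, 73.5 in replicate 2 and 93.0 in replicate 3. Peaks that stood alone had medians of 34.2 in replicate 1 and 46.5 in replicate 3. All regions of 3 replicates in the genome had medians of 81.8, 64.6 and 92.6, so shared regions stood at like percentiles over the whole genome. The best ranks in the 10 loci were 333, 514 and 516 in the 3 lists. Within the 13, the range was 14.8 to 98.2 in replicate 1, 17.1 to 93.7 in replicate 2 and 70.9 to 98.7 in replicate 3.

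**Figure D3:**
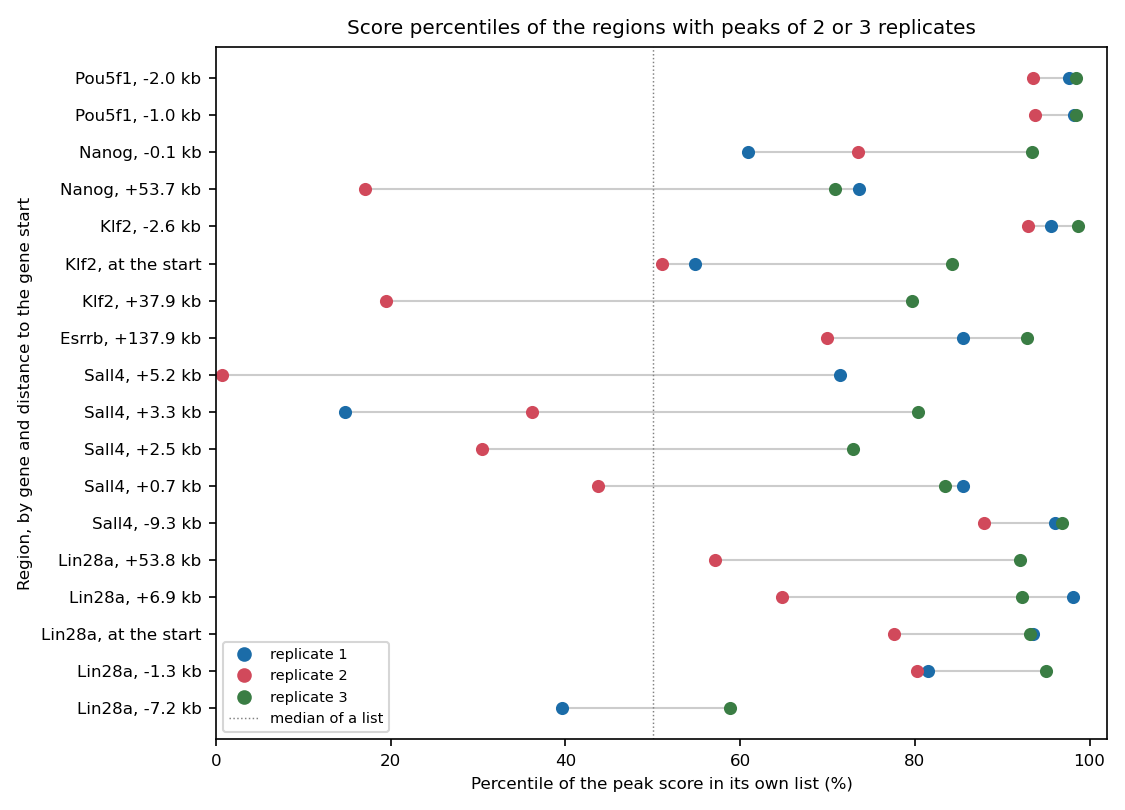
Percentile of the peak score in its own list (x axis) for the 18 regions with peaks of 2 or 3 replicates, named by gene and distance to the gene start (y axis), with 1 point per replicate and the dotted line at the median of a list. The points of the Pou5f1 regions and of the Klf2 upstream region lie together between percentiles 93.0 and 98.7, those of the Sall4 upstream region lie between 87.9 and 96.8, and those of the inner Sall4 regions spread over most of the axis.

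By place, 8 of the 13 regions lay within 2 kb of the start of a protein-coding gene, 3 in introns and 2 in intergenic sequence. Among the 8 was the region of the Pou5f1 distal enhancer, whose middle, 1993 bp upstream, was just inside this limit. The starts were in each case those of Pou5f1, Nanog, Klf2, Sall4 or Lin28a themselves. The introns were those of Esrrb, Lin28a and Slc2a3, and the intergenic regions lay upstream of Klf2 and Sall4.

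A SOX word in any of the 4 spellings was present on either strand in 11 of the 13 regions, 84.6%. Windows as wide as the region, placed 2000 bp to its left and right, held one in 21 of 26 cases, 80.8%. The words are short and common, and over all 5356 regions of 3 replicates without unknown bases the shares were 82.6% in the regions and 72.6% beside them. The octamers ATGCAAAT and ATGCTAAT, which can overlap the composite words, were present in 2 of the 13 regions and in 4 of the 26 side windows, 15.4% of both, beside 11.6% of all regions and 4.30% of their side windows. For both kinds of word the share in the 13 regions was close to that in the windows beside them, but these windows were not cleared of peaks. They took in the octamers 3229.5 bp downstream of the Sall4 start and 2284.5 bp downstream of the Lin28a start, both under SOX3 peaks. The octamer share beside the 13 regions is therefore not a background free of SOX3 peaks, and no lack of enrichment can be read from it.

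The composite word, TTGT, 1 base and ATGCAAA, is long enough to be rare. It occurred 2544 times in the genome, and 5.31% of the copies lay under a peak of some replicate and 2.71% under peaks of all 3. The 10 loci held 1 copy, that of the Nanog promoter, which lay under a peak in each replicate. Of all regions of 3 replicates 1.29% held the word, beside 0.0374% of their side windows. A shorter form, TTGT, 1 base and ATGC, which was added after the data were seen, occurred 34 times in the 10 loci. A peak of all 3 replicates covered 2 of these copies, those of the Pou5f1 distal enhancer and the Nanog promoter, and no peak covered any other copy. Of all regions of 3 replicates 7.86% held the shorter form, beside 1.26% of side windows. Whether a POU protein was bound at these words was not measured.

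Enhancers known from work in ES cells were searched in windows set by textbook distances from the gene start, or from the gene end for the 3′ enhancers of Fgf4 and Utf1, and a window counted when at least 1 bp of a peak overlapped it. None of the files gives coordinates for these enhancers, so the windows are approximate, and the Klf4 window, from 50000 to 70000 bp downstream, is far wider than the others. For the 10 genes, 4 of the 7 windows carried a peak, and each of the 4 carried it in all 3 replicates. The same windows were laid at all 22367 protein-coding genes, and held peaks of all 3 replicates at 0.434% of genes for the distal and 0.474% for the proximal Pou5f1 window, 2.05% for the Nanog promoter window and 5.83% for the Klf4 window, where 37.0% of genes had a peak of some replicate. The 4 with a peak were those of the distal and proximal enhancers of Pou5f1, the SOX-OCT element of the Nanog promoter and the wide Klf4 window. In the Klf4 window the region was centred 68034 bp downstream, near the outer edge. Whether it lay on a known Klf4 enhancer cannot be told from so wide a window. The 3 without a peak were those of the nearer and farther upstream Nanog enhancers and of the octamer element of Zfp42. At all genes these windows held a peak of some replicate in 4.79%, 5.69% and 12.5% of cases, so an empty window was the usual outcome. No window was covered in only 1 or 2 replicates, so each either had a peak in every list or in none.

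Of 6 windows at other genes of the ES cell circuit, 4 carried a peak and 1, the SRR2 enhancer downstream of Sox2, carried it in all 3 replicates. Laid at all genes, these 6 windows held a peak of some replicate at 3.18% to 15.5% of genes, and the SRR2 window held peaks of all 3 replicates at 0.420%. The SRR2 scores of 1004, 608 and 1031 ranked 165, 144 and 182, above every region of the 10 loci. The Sox2 SRR1 enhancer held 1 low peak of replicate 3 with score 52.5. At the promoter of Lefty1, an inhibitor of Nodal, peaks of replicates 2 and 3 stood at percentiles 74.3 and 94.6. The 3′ enhancer of Utf1 held a peak of replicate 3 at percentile 84.0, and the 3′ enhancer of Fgf4 and the promoter element of Fbxo15 held none.

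The same count was made for other genes of the pluripotent state. Of 14 further genes of the naive state, 4 had a region of 3 replicates, 28.6%, close to the 28.8% of all genes. They were Dppa3, Gdf3, Tcl1 and Tet2, and Dppa3 and Gdf3 share a region, which ranked 771, 843 and 683. Of 11 genes of the primed state and the shared core, 6 had one, 54.5%, with the best ranks of replicate 3 at Lefty1 and Lefty2, which share regions (159, 124 and 116), and at Zscan10 (191, 171 and 124). Of 3 genes of the LIF pathway, the cytokine signal that sustains ES cells, Lifr, its receptor, had one.

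Within 2 kb of a start the lists differed from the 10 genes in the size of the count. The 10 genes had 5 with a promoter region of 3 replicates, the 14 naive genes had 1 (Dppa3), the 11 primed and core genes had 2 (Lefty1 and Zscan10) and the 3 LIF pathway genes had 0. Of 9 neural progenitor genes found in the annotation, which include Sox2, 5 had a region of 3 replicates, 55.6%, and 3 (Pax6, Hes5 and Zic1) had it at a start. The highest-ranked in replicate 3 were Sox2, Nes and Hes5. The count of 5 for the 10 genes, beside 4.66% of all genes, fell to 2 at a p-value of 1e-10 or less, beside 1.93%. No count at that p-value is given for the other lists. The lists hold 3 to 14 genes, and no difference between them was tested.

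**Figure D4:**
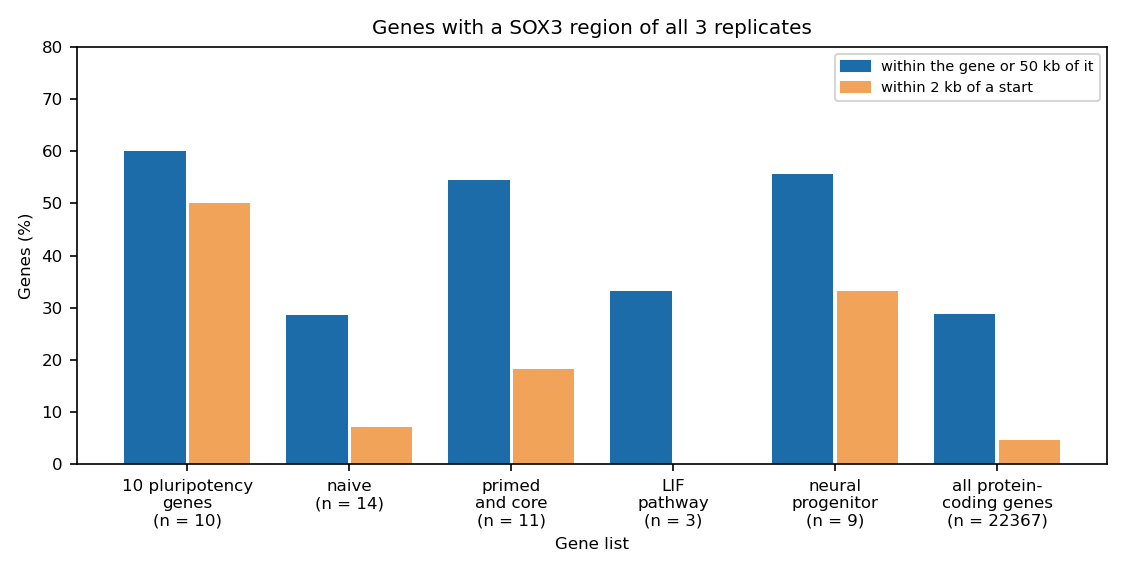
Share of genes in percent (y axis, from 0) with a region of all 3 replicates in the body or 50 kb around it (blue) and within 2 kb of a start (orange), for the 10 genes, 4 further lists and all protein-coding genes (x axis, with the number of genes). The 10 genes stand at 6 and 5 genes of 10, the naive list at 28.6% and 7.14%, and all genes at 28.8% and 4.66%.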

How the data were processed

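SOX3 ChIP-seq was performed by the authors on 3 samples of NP cells. Reads were aligned to mm9 with Bowtie (version 1.0.0 in the submitters' processing notes), and peaks were called in each replicate by MACS with the input as control (bandwidth 300, model fold 10 to 30, p-value threshold 1e-05). The deposited score of each peak is 10 times the negative log10 of this p-value, made by the authors without normalization between replicates, so scores were compared within a list. The lists hold no depth.

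Peaks were taken where they overlapped a gene body of GENCODE vM1 (NCBIM37, the assembly of mm9) plus 50 kb on each side, and were joined by 1 bp of overlap. Words were searched exactly on both strands. Steps ran in Python 3.11.15 with numpy 2.4.6, numba 0.67.0 and pysam 0.24.0, and were tested on simulated data, where all 200 planted shared regions and 40 of 40 planted words were found. Regions of 2 or 3 replicates were named by position except 1 at Sall4, whose position and sequence are not reported here, single-replicate regions by count with the highest one, and up to 3 genes of each further list by their rank in replicate 3. Tet2, Pax6, Zic1 and some lower single-replicate regions, mostly near starts, were named outside this rule, after their values were seen. Known enhancer windows were set by textbook distances. The genes and lists were chosen with earlier results of these data known. Sox1 was not matched in the annotation, and Tfcp2l1 was found as Tcfcp2l1. As alternatives, flanks of 10 and 100 kb, the stricter p-value of 1e-10, lists cut to equal length, joining by 50% overlap or by midpoints up to 300 bp apart, dropping a replicate, other starts and, for the known windows, the middle of a peak were tried.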

Additional observations from a re-analysis of the deposited data

How the results depend on the processing

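Of 60 values under alternatives, 49 stayed within 1.5 times of those reported. At a p-value of 1e-10 or less, 6 of the 10 genes had a peak of any replicate (48.5% of all genes), 2 had a region of 3 replicates within 2 kb of a start (a count whose alternatives were added after seeing the data), 5 kept a region of 3 replicates (all but Nanog), the loci held 18 regions with 8 of 3 replicates, and 15.2% of all genes had such a region. With the 8096 highest scores of each list, 6 genes had any peak (55.4% of all genes) and the loci held 22 regions. With flanks of 10 kb the loci held 35 regions, 6 genes had a region of 3 replicates, and the share of all genes was 14.1%. Leaving out each replicate in turn gave 37 to 64 regions, with 37 without replicate 3, the longest list, and 6 genes with a region of all remaining replicates each time, while the share of all genes was 37.3% without replicate 1, 39.4% without replicate 2 and 29.4% without replicate 3. The median distance of the 13 regions to the gene start was 1993 bp, and 1304.5 bp to the closest annotated start. Of the known windows, 4 carried a peak under each setting except with the middle of a peak required, where it was 3, without the Nanog element. That element was counted again when windows were measured from the start of transcript 001, an alternative chosen after seeing the data. The unknown depth of the libraries limits all counts in single lists.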

Other observations

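Single peaks at the starts of neighbouring genes were counted in several loci, among them Cchcr1 and Cdsn near Pou5f1, Slc2a3 near Nanog and Hmgn2 near Lin28a. The 46 single-replicate regions held a SOX word in 56.5% of cases, beside 41.3% of the windows to each side, and an octamer in 8.70%, beside 1.09%. The octamer ATGCAAAT lay under peaks of 1 replicate 7721.5 bp upstream of Klf2, 2284.5 bp downstream of the start of Lin28a and 109932.5 bp downstream of that of Esrrb, and ATGCTAAT lay under 1 such peak, 62378.5 bp downstream of the start of Lin28a.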
